A study of Homo sapiens with 8 samples.

Results

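The AP-1 transcription factor genes JUN, JUNB, JUND, FOS, FOSB, FOSL1, FOSL2 and ATF3 were examined on promoter microarrays hybridised with DNA from SMAD3 chromatin immunoprecipitation (ChIP-on-chip). The 8 genes were taken by name, out of 17127 gene symbols to which the arrays gave a distance from a transcription start. Their sequences were covered by 304 probes of 45 to 60 bases, of 474411 probes in all, and 303 were used after 1 FOS probe was removed as an outlier. Chromatin came from A549, a line of human lung carcinoma cells of alveolar epithelial type. The cells were either left unstimulated or given TGFβ1 (2 ng/ml) for a time that did not exceed 2 h. Both groups were otherwise grown alike, and each consisted of 2 replicates on 2 slides that carry different probes, giving 8 arrays of 1 cell line. SMAD3-precipitated DNA was labeled with Cy5 and hybridised together with Cy3-labeled DNA from a mock immunoprecipitation of the same cells, which the sample names call anti-FLAG.

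AP-1 is a dimer of basic leucine zipper proteins. Jun proteins pair with each other or with a Fos protein, whereas Fos proteins need a Jun partner, and ATF3 can join Jun proteins on related sites. Many of these genes are immediate-early genes that are transcribed within minutes of a growth factor or stress signal. TGFβ receptors phosphorylate SMAD3, which then enters the nucleus with SMAD4, binds short CAGAC or GC-rich motifs with low affinity, and is known to share promoters with AP-1. Whether SMAD3 was enriched at the promoters of its AP-1 partners themselves, and whether TGFβ1 changed that enrichment, were the questions put to these arrays.

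Promoters of 3 members are shown because the results below turn on them. JUND had the largest change between conditions in the mean over its promoter window, and JUNB and FOS carried probes close to the start that were enriched in both conditions. Each run holds the 250 bases before the RefSeq transcription start (GRCh38.p14), 5′ to 3′ on the strand of the gene, with matches to the searched motifs in capitals. JUND lies at chr19:18281623-18281872 on the minus strand, FOS at chr14:75278578-75278827 and JUNB at chr19:12791236-12791485, both on the plus strand.
JUND: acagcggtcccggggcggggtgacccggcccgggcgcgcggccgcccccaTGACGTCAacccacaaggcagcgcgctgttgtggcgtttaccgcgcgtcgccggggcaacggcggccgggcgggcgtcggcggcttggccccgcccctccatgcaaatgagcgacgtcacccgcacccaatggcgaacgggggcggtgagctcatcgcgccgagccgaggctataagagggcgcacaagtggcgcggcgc
FOS: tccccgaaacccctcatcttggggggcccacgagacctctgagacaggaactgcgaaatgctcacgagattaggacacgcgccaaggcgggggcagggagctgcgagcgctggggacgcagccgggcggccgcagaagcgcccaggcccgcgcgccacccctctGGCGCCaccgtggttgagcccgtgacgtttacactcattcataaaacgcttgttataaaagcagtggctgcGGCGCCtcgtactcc
JUNB: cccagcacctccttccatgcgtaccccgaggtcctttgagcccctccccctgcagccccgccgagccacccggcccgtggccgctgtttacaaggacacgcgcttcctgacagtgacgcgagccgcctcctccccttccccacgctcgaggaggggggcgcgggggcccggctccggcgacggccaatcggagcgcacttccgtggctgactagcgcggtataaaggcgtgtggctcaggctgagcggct

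The motifs searched on both strands were CAGAC (a SMAD motif), GTCTAGAC (its palindrome), GGCGCC (a GC-rich SMAD motif), TGANTCA (the AP-1 site, where N is any base) and TGACGTCA (the cyclic AMP response element, to which Jun and ATF proteins bind). The JUND sequence held TGACGTCA once, 193 to 200 bases before the start, a motif present in 1.65% of 35116 RefSeq promoters of this length. The FOS sequence held GGCGCC at 2 places, 10 to 15 and 81 to 86 bases before the start, against 16.4% of all promoters with at least 1 match. None of the letters searched occurred in the JUNB or the JUN window. Among the other members with a RefSeq promoter, FOSB held CAGAC at 2 places, and FOSL2 and 1 of the 2 ATF3 promoters at 1 place, a motif found in 38.0% of all promoters. GTCTAGAC (0.182% of promoters) and TGANTCA (6.57%) were in none of the windows of these 7 genes. RefSeq starts need not be the starts to which the array refers, and the 2 ATF3 promoters in RefSeq were left out of the comparison with the probes for that reason.

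Enrichment of SMAD3 was measured as the log2 ratio of the SMAD3 to the mock signal, centred on the median of each array. A probe was called enriched when this ratio was above 0 in limma at a Benjamini-Hochberg adjusted p under 0.05 over all 473007 probes, and changed when the conditions differed at the same threshold. A probe is called measured here when it was well above background in both channels in all 4 replicates. In the 303 AP-1 probes, 149 were measured (49.2%), compared with 34.0% of all probes.

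SMAD3 IP exceeded mock IP at 37 AP-1 probes in unstimulated cells and at 39 after TGFβ1 stimulation, or 12.2% and 12.9% of the 303. Over all probes, 8.92% were called in unstimulated and 8.22% in stimulated cells. With only measured probes in the fit, the counts were again 37 and 39, of 149 measured AP-1 probes. AP-1 probes were measured more often than all probes (49.2% against 34.0%), and enriched shares among measured probes were not compared. Whether the higher enriched shares of the AP-1 probes go beyond this difference was therefore not tested. Both conditions shared 18 AP-1 probes (5.94%, compared with 4.27% of all probes), which is 48.6% of the unstimulated and 46.2% of the stimulated calls. The reverse, a centred ratio below 0, was called at 75 AP-1 probes before and 85 after stimulation (24.8% and 28.1%). Of all probes, 17.4% and 18.5% were called in the same direction. The array medians of the ratio were positive before centring, so the SMAD3 signal need not lie below the mock signal at such probes. The counts of 37 and 39 became 89 and 125 without centring on the array median, 4 and 10 with the normexp background correction, and as few as 20 and 15 with 1 replicate left out. The share of enriched probes was higher near the start. Within 250 bp of the annotated start, 8 of 22 AP-1 probes were enriched in unstimulated cells (36.4%) and 9 after stimulation (40.9%). All probes in this distance class reached 25.3% and 24.0%. Of the 22 AP-1 probes 19 were measured (86.4%), compared with 67.3% of all probes in the class. More than 2000 bp upstream, 2 of 78 AP-1 probes were enriched in each condition (2.56%), where all probes of that class reached 4.42% and 3.81%.

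**Figure D1:**
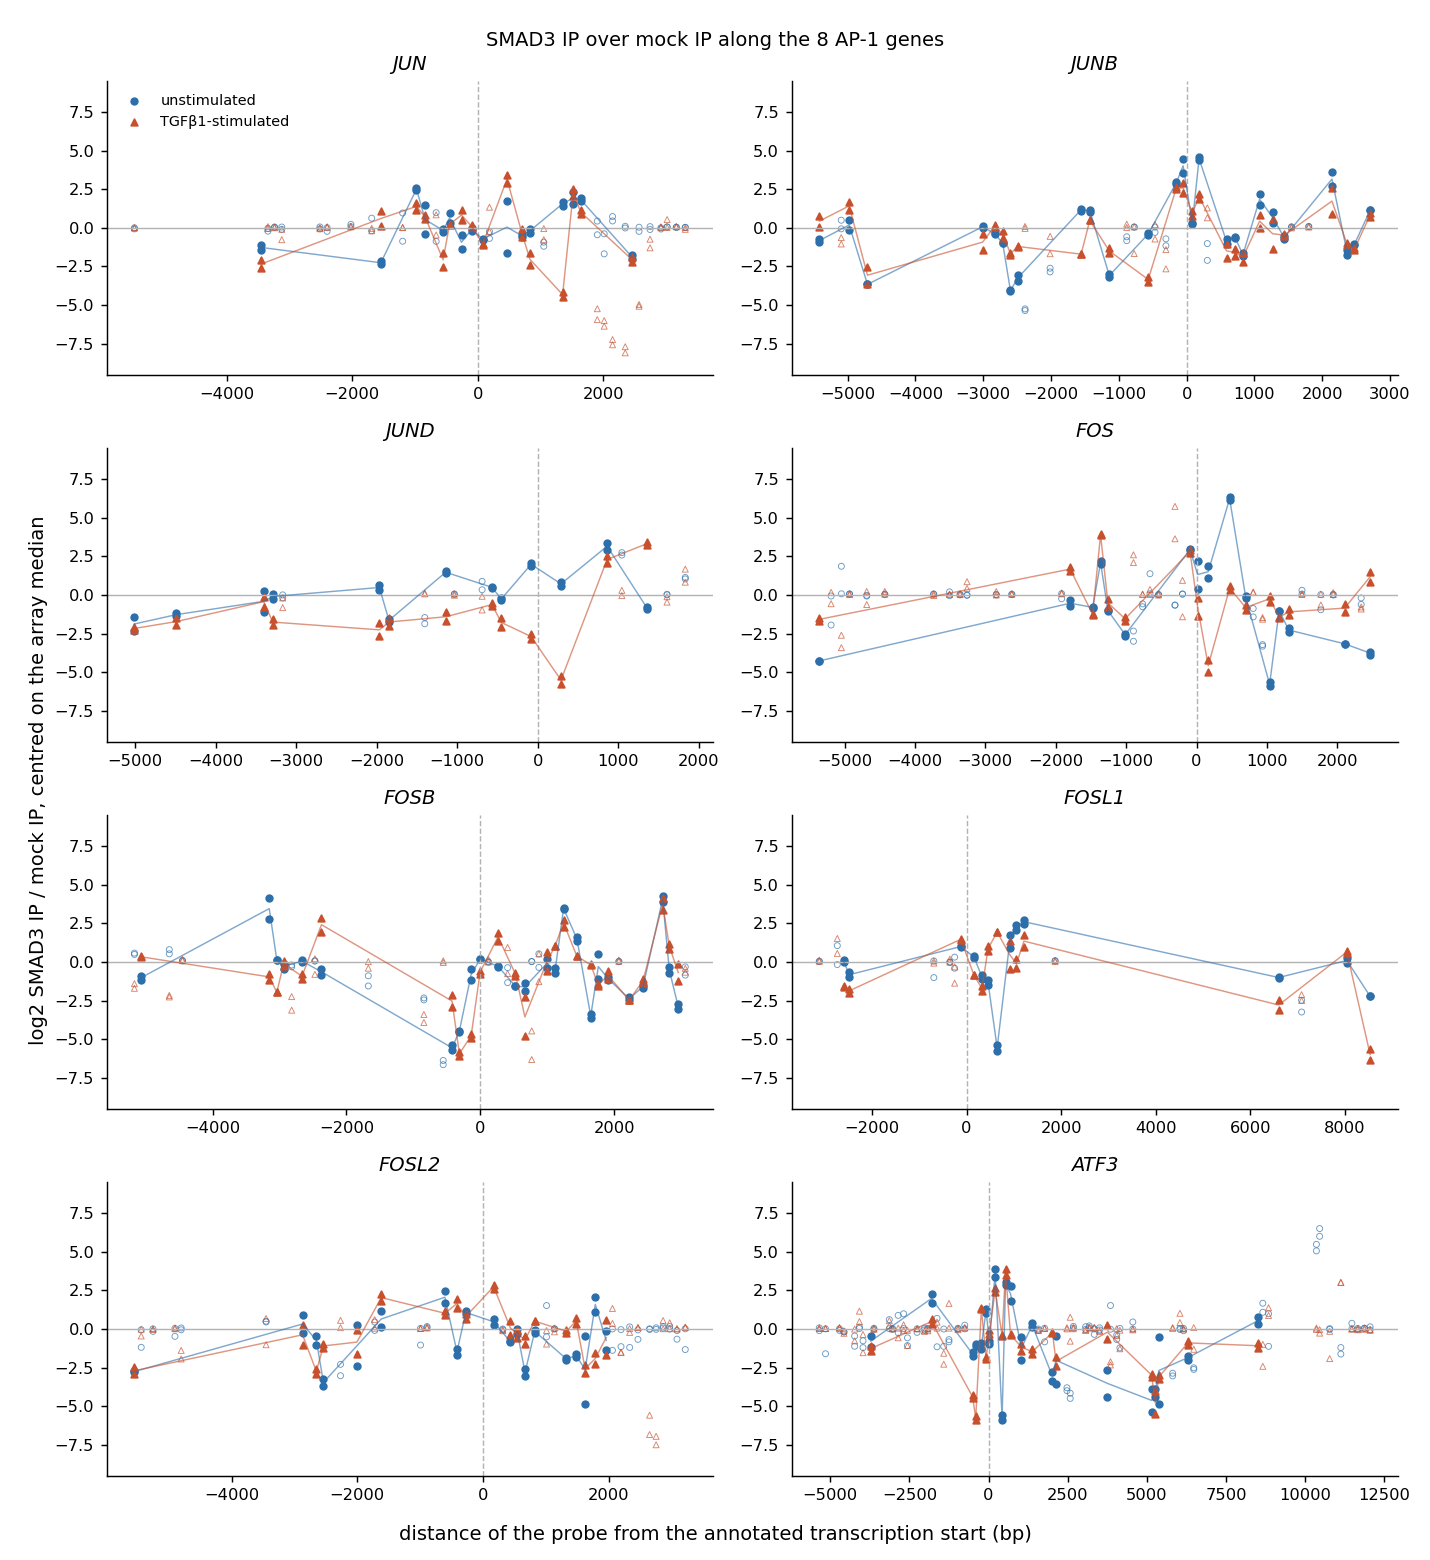
Log2 ratio of SMAD3 IP over mock IP at each probe of the 8 AP-1 genes (y axis) against its distance from the annotated transcription start in bp (x axis, a range of its own in each panel), with both replicates of unstimulated (blue circles) and TGFβ1-stimulated cells (red triangles). Filled symbols are the 149 measured probes, with lines through the replicate means, and open symbols are the other 154 probes; JUNB peaks at the start in both conditions, and JUND falls below 0 there after stimulation.

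All 8 genes had at least 1 of the 18 probes enriched in both conditions. JUNB, a Jun protein with weaker transactivation than JUN, had 5 of them, the most of any member, and 3 of these stood within 250 bp of its start. At the JUNB probe 154 bp upstream, the log2 ratio was 2.84 and 2.98 in the unstimulated replicates and 2.62 and 2.50 in the stimulated ones. At 52 bp upstream it was 3.55 and 4.48 before and 2.26 and 2.90 after stimulation. Neither probe passed the test of a change (limma adjusted p 0.176 and 0.149), although the replicates of the conditions did not overlap at either. The change at 52 bp was called with only measured probes in the fit (-1.43, adjusted p 0.0417). At 183 bp downstream, the ratio of 4.402 and 4.554 fell to 1.84 and 2.19. The ratio thus changed by -2.46 (standard error 0.18; limma, adjusted p 0.00687), together with a mock IP signal that rose by 2.16 (standard error 0.33, adjusted p 0.0115), while the SMAD3 IP signal changed by -0.23 (standard error 0.39, adjusted p 0.803). The change at this probe was no longer called with the normexp background correction (-1.503, adjusted p 0.715) or without either unstimulated replicate.

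FOS, the founding Fos protein and a classic serum-induced gene, had the probe with the smallest change of the 18, close to its start. At 93 bp upstream the log2 ratio was 2.92 and 2.95 in unstimulated and 2.74 and 2.88 in stimulated replicates, a change of -0.13 (standard error 0.11, limma adjusted p 0.601). Its processed signals were among the brightest of the members, from 168090 to 272320 units in the SMAD3 channel and 15258 to 23066 units in the mock channel. A further FOS probe, 1363 bp upstream, was enriched in both conditions and rose from 2.00 and 2.17 to 3.85 and 3.93. There the change of 1.80 (standard error 0.12, adjusted p 0.00596) was accompanied by a rise of the SMAD3 IP signal of 2.61 (standard error 0.43, adjusted p 0.0487) and a mock IP change of 0.74 (standard error 0.37, adjusted p 0.346). With the normexp correction it was 2.08 (adjusted p 0.602).

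ATF3, a stress-induced partner of Jun proteins, was enriched in both conditions at 209 and 537 bp downstream of its start. The ratio at 209 bp was 3.91 and 3.37 before and 2.63 and 2.37 after stimulation, and that at 537 bp was 2.83 and 3.03 before and 3.87 and 3.52 after. Neither change passed the test in limma (adjusted p 0.0708 and 0.0839), and they ran in opposite directions. The change at 209 bp was called with loess (-1.003, adjusted p 0.0221), without centring (-0.98, adjusted p 0.0321) and with only measured probes (adjusted p 0.0264).

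At 567 bp upstream, the measured JUNB probe with the largest change, the ratio fell from -0.35 and -0.45 to -3.21 and -3.48 (change -2.94, standard error 0.15, limma adjusted p 0.00395). The mock signal rose there by 1.48 (standard error 0.33, adjusted p 0.0432) and the SMAD3 signal differed by -1.39 (standard error 0.25, adjusted p 0.0595). The call was lost with the normexp correction (-1.39, adjusted p 0.201).

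The remaining members were enriched in both conditions mostly away from the start. JUN, the archetypal partner in the dimer, was enriched at 977 bp upstream and at 1518 and 1638 bp downstream, inside the gene. Its probe at 977 bp gave 2.44 and 2.58 before and 1.62 and 1.16 after stimulation, and its highest stimulated ratio was at 464 bp downstream, where unstimulated replicates of -1.63 and 1.72 lay far apart and stimulated ones were 2.90 and 3.42 (adjusted p of the change 0.267). FOSB, a Fos protein linked to long-lasting stimuli, had its highest ratio in both conditions at 2723 bp downstream, with 4.26 and 3.88 before and 4.13 and 3.38 after stimulation. JUND, the Jun protein that many cells express at rest, was enriched at 862 bp downstream (2.92 and 3.38 before, 2.05 and 2.54 after). FOSL1 (FRA-1) and FOSL2 (FRA-2), which lack the strong transactivation domain of FOS, were enriched in both conditions at probes upstream of the start. The FOSL1 probe at 121 bp upstream gave 1.05 and 0.95 before and 1.440 and 1.496 after stimulation. Its highest unstimulated ratio was at 1213 bp downstream, with 2.48 and 2.74 before and 0.97 and 1.73 after. The FOSL2 probe at 272 bp upstream gave 1.17 and 0.99 before and 1.00 and 0.62 after. Higher in unstimulated cells was the FOSL2 probe at 605 bp upstream, with 2.46 and 1.66 before and 1.17 and 0.88 after (adjusted p of the change 0.168). Some probes are annotated to a second gene as well. Of the 20 FOSL1 probes, 5 also belong to CCDC85B, the nearest 1594 bp from its start, and 1 each to CTSW and FIBP. Of 36 JUNB probes 21 also belong to PRDX2, at least 7679 bp downstream of its start, and of 20 JUND probes 9 also belong to IQCN, at -9164 to -7279 bp from its start.

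**Figure D2:**
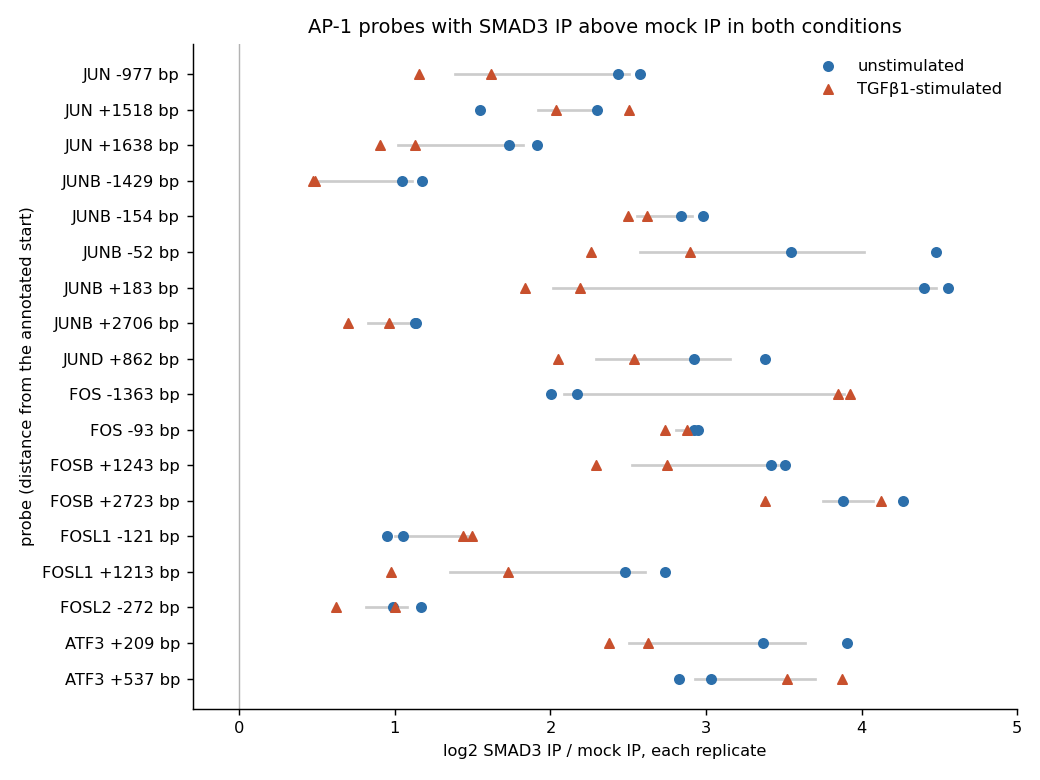
Log2 ratio of SMAD3 IP over mock IP in each replicate (x axis) at the 18 AP-1 probes called enriched in both conditions (y axis, gene and distance from the annotated start), with blue circles for unstimulated and red triangles for TGFβ1-stimulated replicates and grey lines between the means. The 3 JUNB probes around the start lie between 1.84 and 4.55, and the FOS probe at 93 bp upstream between 2.74 and 2.95.

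The log2 ratio differed between TGFβ1-stimulated and unstimulated cells at 101 AP-1 probes, 46 higher and 55 lower after stimulation. Whether TGFβ1 or a difference between the preparations of the 2 groups made these changes was not tested. These are 15.2% and 18.2% of the 303 probes, beside 10.5% of all probes called higher and 12.4% called lower. The surplus was smaller among measured probes. There 33 of 149 AP-1 probes were higher (22.1%) and 39 lower (26.2%), and 19.0% and 25.5% of all measured probes were called in the same fit. The median change of the AP-1 probes was -0.01, and that of all probes was 0.00 within 2 decimals. The calls thus ran in both directions within single genes, and FOSB with 9 higher and 12 lower, ATF3 with 8 and 9, and JUNB with 4 and 4 were nearly balanced. FOS leaned to higher ratios (13 higher, 2 lower), and JUN (1 higher, 9 lower) and JUND (2 higher, 8 lower) to lower ones. The lower JUN probes include neighbouring ones from 1902 to 2567 bp downstream, described below. Between 2000 bp upstream and 800 bp downstream JUN had 1 higher and 1 lower probe. With the normexp correction 6 AP-1 probes were called higher and 14 lower, and the counts were between 18 and 28 higher and 22 and 36 lower when 1 replicate was left out, the fewest without unstimulated replicate 2.

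Each ratio holds 2 signals, so each channel was tested for itself. In the SMAD3 channel 9 of the 303 AP-1 probes rose and 18 fell, with 2.7% and 4.33% of all probes called. In the mock channel 30 of the 303 rose and 31 fell, with 6.83% and 7.67% of all probes called. Without unstimulated replicate 2 limma called 0 AP-1 probes in the SMAD3 channel, where 72 were higher and 36 lower at an unadjusted p under 0.05. Of the 101 changed ratios, the mock signal alone was called in the matching direction at 46 (45.5%), the SMAD3 signal alone at 13 (12.9%), both at 1 and neither at 41 (40.6%). Over all 108458 changed probes these shares were 44.9%, 14.2%, 1.32% and 39.5%. At 64 of the 101 probes (63.4%) the mock signal moved further than the SMAD3 signal, as it did at 64.1% of all changed probes. The division of the AP-1 changes between the channels thus lay within 2 percentage points of that of the whole array. Why the mock signal differed between the conditions was not tested.

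**Figure D3:**
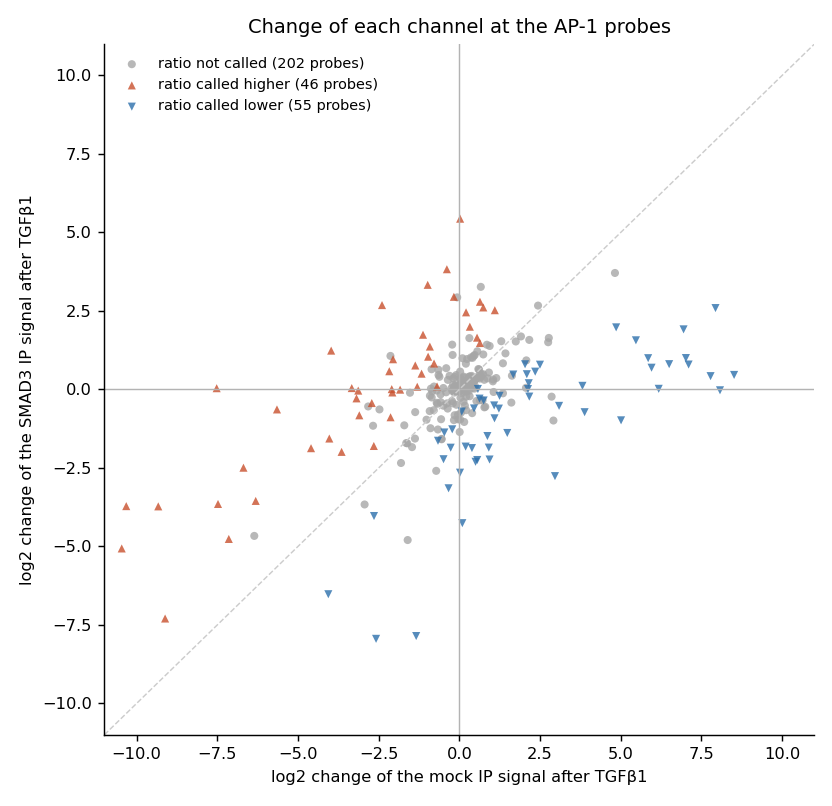
Log2 change after TGFβ1 stimulation of the mock IP signal (x axis) and of the SMAD3 IP signal (y axis) at the 303 AP-1 probes, 1 symbol per probe, with probes called higher (red, 46), lower (blue, 55) or not called (grey, 202) in the ratio; the dashed line marks equal change. The changes run from -10.5 to 8.51 along the mock axis and from -7.94 to 5.44 along the SMAD3 axis. Of these probes 154 were not measured, among them the JUN probe at 2347 bp downstream with the 8.51. The ends of the ranges can thus rest on signals near background.

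JUND had 2 probes around its start where the mock signal moved. At 82 bp upstream, its log2 ratio was 2.07 and 1.89 in unstimulated replicates and -2.83 and -2.56 after stimulation. At 289 bp downstream it was 0.84 and 0.59 before and -5.77 and -5.26 after. The ratio thus passed from SMAD3 IP above mock IP to mock IP above SMAD3 IP, by -4.68 (standard error 0.16, limma adjusted p 0.00248) and -6.23 (standard error 0.24, adjusted p 0.00281). The mock signal rose by 3.88 (standard error 0.33, adjusted p 0.00128) and 6.17 (standard error 0.34, adjusted p 0.00031) at these probes, from 510 to 1940 units before to 26586 to 51122 units after stimulation. The SMAD3 signal changed by -0.73 (adjusted p 0.402) and 0.02 (adjusted p 0.988). Other JUND probes behaved differently. At 1143 bp upstream the ratio fell from 1.54 and 1.40 to -1.13 and -1.70, and here the SMAD3 signal fell by 3.15 (standard error 0.28, adjusted p 0.0107) with the mock signal at -0.34 (adjusted p 0.626). At 1356 bp downstream, inside the gene, the ratio rose from -0.76 and -0.90 to 3.41 and 3.22, and the SMAD3 signal rose by 3.83 (standard error 0.22, adjusted p 0.00411) from 3494 and 4062 to 58173 and 65683 units. This rise of the ratio missed the threshold with the normexp correction (3.11, adjusted p 0.051).

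**Figure D4:**
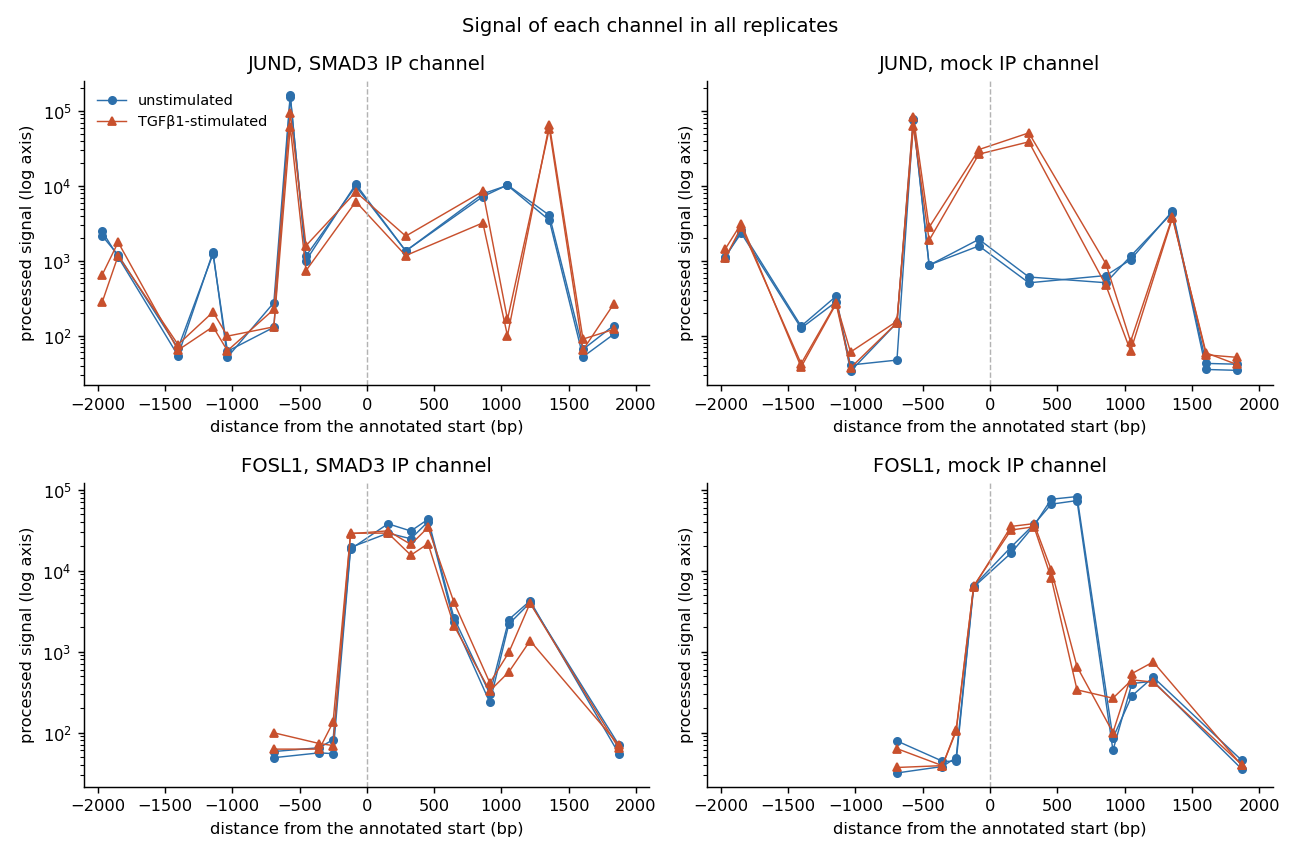
Processed signal in array units (y axis, log scale) of the SMAD3 IP channel (left) and the mock IP channel (right) against the distance from the annotated start in bp (x axis) for JUND (top) and FOSL1 (bottom), with each unstimulated (blue circles) and TGFβ1-stimulated replicate (red triangles) as a line. The mock signal of JUND around the start at 82 bp upstream and 289 bp downstream is 26586 units or more only after stimulation, and that of FOSL1 at 647 bp downstream is 73573 units or more only in unstimulated cells.

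FOS, JUN and FOSL1 had single probes of the same kind. At the FOS probe 166 bp downstream the ratio went from 1.1005 and 1.9023 to -4.98 and -4.19, with a mock signal higher by 7.02 (standard error 0.39, limma adjusted p 0.000305) and a SMAD3 change of 1.00 (adjusted p 0.635). At the JUN probe 1350 bp downstream it went from 1.69 and 1.43 to -4.16 and -4.49, with a mock signal higher by 5.01 (standard error 0.56, adjusted p 0.00349). The FOSL1 probe 647 bp downstream ran the other way, from -5.73 and -5.37 to 1.91 and 1.96. This rise of 7.49 (standard error 0.17, adjusted p 0.00203) was the largest of any AP-1 probe, and the mock signal fell by 7.52 (standard error 0.42, adjusted p 0.000326) with a SMAD3 change of 0.04 (adjusted p 0.977). With the normexp correction the FOSL1 change was 4.37 (adjusted p 0.11). At ATF3, the probe 429 bp downstream rose from -5.88 and -5.59 to -0.39 and -0.44, where the mock signal fell by 3.97 (standard error 0.62, adjusted p 0.0126), and the probe 405 bp upstream fell from -0.96 and -1.10 to -5.63 and -5.91.

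The highest ratio at any measured AP-1 probe was found in unstimulated cells at FOS, 470 bp downstream of the start. It was 6.33 and 6.12 before and 0.30 and 0.58 after stimulation, so the replicates lay far apart between the conditions. With this change of -5.79 (standard error 0.17, limma adjusted p 0.00218) the mock signal rose by 2.96 (standard error 0.40, adjusted p 0.00745). The SMAD3 signal differed by -2.76 (standard error 0.48, adjusted p 0.0574), which did not pass the test. It was not called with the normexp correction (-4.60, adjusted p 0.112).

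At probes of FOSB and FOSL2 the SMAD3 signal moved further than the mock signal. At FOSB, 3154 bp upstream, the ratio fell from 2.77 and 4.14 to -1.15 and -0.78, and the SMAD3 signal fell by 4.26 (standard error 0.23, limma adjusted p 0.00342) with a mock change of 0.09 (adjusted p 0.952). At 2374 bp upstream the FOSB ratio rose from -0.43 and -0.84 to 1.95 and 2.88, with a SMAD3 signal higher by 2.95 (standard error 0.48, adjusted p 0.0482). The FOSL2 probe 170 bp downstream rose from 0.65 and 0.29 to 2.87 and 2.61, where the SMAD3 signal differed by 2.79 (standard error 0.48, adjusted p 0.0568) and the mock signal by 0.64 (adjusted p 0.618). The fall at 3154 bp upstream of FOSB was not called with the normexp correction (-0.71, adjusted p 0.748) or without unstimulated replicate 2 (-3.74, adjusted p 0.0508) or either stimulated replicate (-4.24 and -4.61). The measured FOSL2 probe with the largest change lay 1789 bp downstream and went from 1.09 and 2.10 to -1.57 and -2.23 (change -3.50, standard error 0.49, adjusted p 0.0249). Neither channel passed the test there, with a SMAD3 change of -0.52 (standard error 1.37, adjusted p 0.872) and a mock change of 3.09 (standard error 0.98, adjusted p 0.128). Its call was lost whichever replicate was left out and with the normexp correction (-1.63, adjusted p 0.587). The FOSL2 rise at 170 bp lost its call whichever replicate was left out, with adjusted p-values from 0.0542 to 0.0634.

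Neighbouring probes moved together in the mock channel at JUN and FOSL2. At 5 of the 6 JUN probes from 1902 to 2567 bp downstream, the mock signal was 36.8 to 262 units in unstimulated and 3637 to 11068 units in stimulated cells. The SMAD3 signal of the same probes lay between 51.3 and 340.5 units in every replicate. FOSL2 showed the same at 2653 and 2757 bp downstream, with mock signals of 37.2 to 76.8 units before and 4899 to 7347 units after stimulation. At 5 of these 7 probes the mock signal was not well above background on either unstimulated array, so that no fold is given. At the other 2, JUN at 1902 and 2012 bp, it rose by 6.50 (standard error 0.38, limma adjusted p 0.000371) and 5.95 (standard error 0.33, adjusted p 0.000307) on the log2 scale. The sixth JUN probe, at 2456 bp, was bright in both channels in all replicates, with mock signals of 85733 to 111610 units, and its mock signal changed by 0.23 (standard error 0.50, adjusted p 0.864). At the JUN probe beyond the run, 2742 bp downstream, both channels were higher after stimulation. Its mock signals were 53.5 and 39.5 units before and 841 and 961 after. Its SMAD3 signals were 66.6 and 51.4 units before and 454 and 894 after.

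Over a promoter window from 2000 bp upstream to 800 bp downstream, the log2 ratios of the probes were averaged for each gene and each replicate. FOSL1 and FOSL2 were higher after stimulation and JUNB, JUND and ATF3 lower, whereas JUN, FOS and FOSB did not pass the test. Of 16294 genes tested in this way, 20.3% were higher and 27.5% lower, so 2 and 3 of 8 members are close to the share of all genes. The median change was 0.00 over the 8 members and -0.06 over all genes.

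JUND had the largest window change of the members. Its window of 10 probes, 7 of them measured, gave 0.30 and 0.14 in unstimulated and -1.81 and -1.48 in stimulated replicates. The change of -1.87 (standard error 0.16, limma adjusted p 4.46e-05) kept its direction and its call under every alternative run, from -2.94 to -0.97. It rested on 6 lower and 1 higher probe, among them those at 82 bp upstream and 289 bp downstream where the mock signal rose. The 3 genes with the replicate values nearest to those of JUND, by Euclidean distance over the 4 replicates among 16286 other genes, were SLFN13 (0.0975), GIPC1 (0.14) and SPG11 (0.198).

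FOSL1 rose from -0.97 and -0.80 to 0.00 and 0.23 (change 1.00, standard error 0.15, limma adjusted p 0.000865), from 8 probes that include the one at 647 bp downstream. A window of 1000 bp upstream to 500 bp downstream, which leaves this probe out, gave 0.08 (adjusted p 0.748). FOSL2 rose from -0.07 and -0.13 to 0.83 and 0.45 (change 0.75, standard error 0.16, adjusted p 0.00606). JUNB fell from 0.40 and 0.35 to -0.29 and -0.12 (change -0.58, standard error 0.14, adjusted p 0.00889), and ATF3 from 0.07 and -0.03 to -0.33 and -0.38 (change -0.38, standard error 0.13, adjusted p 0.046). In these 4 genes the replicates of the conditions did not overlap. The FOSL1, JUNB and ATF3 calls were lost with the normexp correction, and with the median of the probes in place of the mean limma called only JUND (at an unadjusted p under 0.05, 2 members were higher and 1 lower). The FOSL2 call was lost over all probes of the gene (0.0028, adjusted p 0.987). The JUNB median turned upward (0.25, adjusted p 0.483). The JUNB call was also lost without stimulated replicate 1 (-0.50, adjusted p 0.0526), and the ATF3 call whichever replicate was left out. The ATF3 call was further lost with loess (-0.22, adjusted p 0.197), with the authors' table of ratios (-0.23, adjusted p 0.22), with separate fits per slide (adjusted p 0.091) and with the narrower window (adjusted p 0.0797).

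JUN went from -0.20 and 0.03 to 0.32 and 0.28 (change 0.38, standard error 0.14, limma adjusted p 0.0591). JUN was called higher with the authors' table of ratios, which is not centred (0.53, adjusted p 0.0395), and with a variance trend in limma (adjusted p 0.0459). FOS lay at 0.34 and 0.33 before and 0.26 and 0.50 after stimulation (change 0.04, standard error 0.14, adjusted p 0.829), although 6 of its 17 window probes were higher and 2 lower. FOSB had the lowest window of all members in both conditions, at -1.93 and -1.93 before and -2.26 and -1.68 after (change -0.05, standard error 0.20, adjusted p 0.872). Its mean was thus below 0 in both conditions (adjusted p 1.14e-05 and 9.09e-06), with mock IP above SMAD3 IP. Direction was not stable for 2 of these genes: with only measured probes FOS fell by 0.97 (adjusted p 0.00122), and FOSB was 0.55 higher in the narrower window (adjusted p 0.0356). Over all probes of the gene JUN changed by -0.95 (adjusted p 0.000229), which includes the run at 1902 to 2567 bp.

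**Figure D5:**
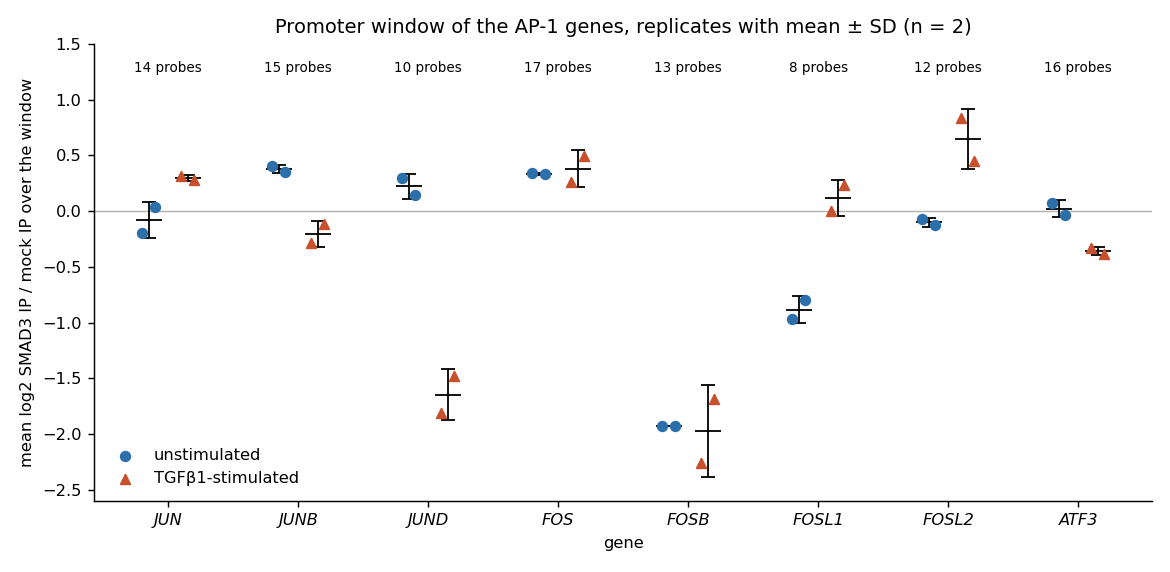
Mean log2 ratio of SMAD3 IP over mock IP in the promoter window (y axis) for the 8 AP-1 genes (x axis), with each unstimulated (blue circles) and TGFβ1-stimulated replicate (red triangles) and black bars for the mean ± SD (n = 2); the number of probes stands above each gene. JUND falls from 0.22 to -1.65, FOSL1 rises from -0.88 to 0.12, and FOSB stays near -1.95 in both conditions.

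A peak was then fitted to the probes of each gene, and its height is the fitted ratio at its centre, with 1 for no peak. Among the 8 members only ATF3 was called bound, and only in unstimulated cells. In all, 3.3% of 16871 genes were called bound in unstimulated and 2.64% in stimulated cells. The ATF3 peak had a height of 181 (256 and 152 in the single replicates) and shuffling p-values of 0.0035 and 0.00374. Its centre lay 256 bp from the nearest probe, which is 10359 bp downstream of the annotated start and inside the gene. That probe had SMAD3 signals of 14066 and 24155 units before and 61.3 and 63.4 units after stimulation, and the next probe, at 10461 bp, had 13927 and 22065 before and 63.6 and 62.6 after. After stimulation neither probe was well above background in the SMAD3 channel. ATF3 was not called with the normexp correction, with only measured probes, which leave both probes out, or at a shuffling p under 0.001.

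No other peak of a member passed the threshold of 0.01 in both replicates. FOS came nearest in unstimulated cells, with a height of 11.3 and shuffling p-values of 0.0437 and 0.0557, and its height after stimulation was 3.36. JUNB had heights of 4.76 before and 3.36 after stimulation, with the nearest probes at 52 bp upstream and 83 bp downstream of the start (p 0.112 and 0.089 before, 0.163 and 0.129 after). Of all members JUNB alone had its peak within 100 bp of the start in both conditions. JUND had heights of 11.3 and 5.66, FOSL1 of 9.51 and 2.38, JUN of 3.36 and 2.38 and FOSL2 of 1.68 and 5.66. The unstimulated FOSB peak had its centre 589 bp from the nearest probe, so its height is not given, and after stimulation FOSB had 2.38.

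The genes around AP-1 were summarised over the same promoter window, in which 20.3% of all genes were called higher and 27.5% lower with a median change of -0.06. Among 24 tested basic leucine zipper factors that can pair with AP-1 proteins, 5 were higher (20.8%) and 9 lower (37.5%), with a median change of -0.04. NFE2L1 (1.71), ATF4 (1.13) and CEBPB (0.95) had the largest called rises and CEBPG (-1.70), ATF1 (-0.999) and NFE2L2 (-0.97) the largest called falls. Among 23 kinases and factors upstream of AP-1, 3 were higher and 5 lower (median -0.25). ELK1 (1.78), MAP2K1 (1.39) and SRF (0.51) rose, whereas ELK4 (-3.43), the p38 kinase gene MAPK14 (-2.57) and MAP3K7IP1, now TAB1 (-1.60), fell. For ELK4 2 of 9 window probes were measured.

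Among 20 genes known to respond to AP-1 and TGFβ, 3 were higher (15%) and 4 lower (20%), with a median change of -0.11. The shares over all genes were 20.3% and 27.5%. CTGF, a matricellular protein and standard TGFβ target, rose from -0.82 and -0.67 to -0.004 and 0.19 (change 0.84, standard error 0.14, limma adjusted p 0.00185). Its stimulated ratios thus lay near the array median. PLAU (0.45) and MMP3 (0.43) had the next largest called rises, and none of the 13 window probes of MMP3 was measured. VIM (-1.30), VEGFA (-1.25) and TIMP1 (-0.71) had the largest falls. The remaining called fall was that of TAGLN, from -0.61 and -0.59 to -1.30 and -1.07 (change -0.58, standard error 0.14, limma adjusted p 0.0105). Among 20 other immediate-early genes, 3 were higher (15%) and 9 lower (45%), with a median change of -0.36, beside -0.06 over all genes. ZFP36 (0.99), KLF6 (0.53) and EGR1 (0.41) rose, and IER3 (-2.45), DUSP5 (-2.41) and IER2 (-0.77) had the largest falls.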

How the data were processed

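Chromatin immunoprecipitates from A549 cells were hybridised by the authors to 2-colour promoter arrays and scanned with Agilent Feature Extraction 9.5.1.1, per the labels. The deposited intensity values of each spot (processed signals, background-subtracted and dye-normalized by that software) and the authors' table of log2 ratios, equal to those signals within 3.13e-06, were used. No probe sequence was used, and because the files name no genome build for the probes, positions are distances to the annotated start. Outlier spots removed 1404 probes. Array medians of the log2 ratio (0.237 to 0.725) were subtracted, and log2 ratios, single channels and window means (at least 3 probes) were tested in limma 3.58.1 with Benjamini-Hochberg adjustment. Within a slide the ratios correlated at 0.825 to 0.949 between replicates and at 0.205 and 0.219 between conditions, over probes that are not independent. The number of arrays limits the precision. Peaks (fragments of 200 to 700 bp, at least 4 probes, 10 shuffles of the probes) were called at p under 0.01 in both replicates and a height over 1.5. The limma step was tested on simulated data. Named probes were, per gene, that with the largest change and those with the highest ratio in each condition among measured probes, and further called probes. From each other list, up to 3 called genes per direction were named, and TAGLN in addition. Other probes in the text, the runs of neighbouring probes among them, were chosen after their values were seen. The members and lists were chosen with earlier results of these data known. Alternatives were background correction, normalization, probe filters, replicate block, separate slides, left-out replicates, other windows and other peak thresholds.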

Additional observations from a re-analysis of the deposited data

How the results depend on the processing

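Several AP-1 counts moved by over 1.5 times. With normexp, 6 were called higher, 14 lower, 4 enriched in unstimulated and 10 in stimulated cells. Without centring, as with the authors' table, 89 and 125 were enriched. In the SMAD3 channel, no centring gave 14 higher and 28 lower, quantile normalization 18 higher, and a replicate block 2 higher and 10 lower. In the mock channel, only measured probes gave 16 higher and no centring 48 lower. Window calls were 1 higher and 1 lower with normexp, 1 higher over all probes of the gene, and 0 higher and 1 lower with the median. ATF3 was not bound (0 genes) with normexp, with only measured probes or at the stricter p.

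Leaving out 1 replicate gave 18 to 28 probes higher, 22 to 36 lower, 20 to 31 enriched in unstimulated and 15 to 26 in stimulated cells. It gave 0 to 26 higher and 0 to 42 lower in the SMAD3 channel, the 0 without unstimulated replicate 2, and 23 to 49 higher and 25 to 45 lower in the mock channel. Window calls were 2 higher and 1 to 2 lower.

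Window changes turned their direction over all probes for JUN (-0.95), JUNB (0.021), FOSL1 (-0.15) and ATF3 (0.0018), and with the median for JUNB (0.25) and FOSB (0.42). FOS turned with normexp (-0.28), measured probes (-0.97), the narrower window (-0.38) and without stimulated replicate 2 (-0.072, the lowest of the left-out replicates, up to 0.16). FOSB turned with normexp (0.28), loess (0.089), the authors' table (0.0892), the narrower window (0.55) and without stimulated replicate 1 (0.245, and down to -0.337 for the others). A pair of probe changes turned, that of FOSB at 2723 bp downstream without stimulated replicate 2 (0.054, and down to -0.69 for the others) and that of FOSL2 at 605 bp upstream with normexp (0.37). Of the other 262 probe comparisons, 219 kept their direction and side of the threshold, 36 lost and 7 gained a call. The causes were not tested. The deviations of the replicates showed no pairing by replicate number (correlations 0.0088 and 0.0235). The labels do not say whether the samples were prepared in pairs. Beside the SMAD3 counts, the replicate block gave 38 probes higher and 41 lower, 34 and 36 enriched, and 24 and 27 in the mock channel. It gave 3 and 3 windows, JUN among the higher ones (adjusted p 0.049), and called the JUNB probe at 52 bp upstream (adjusted p 0.043).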
